A study of Homo sapiens with 16 samples.

Results

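The genes described here are 9 members of the MHC class I antigen presentation pathway: HLA-B, HLA-C, HLA-E, HLA-F, B2M, TAP1, TAP2, TAPBP and NLRC5. They were found by symbol among the 34618 gene IDs of the deposited table, 1 primary assembly entry each. The rule that lists them uses no measured value, but the 9 genes were chosen with earlier results of these data known. RNA came from 2 human acute myeloid leukaemia lines, U937, a promonocytic line, and KG1A, an immature CD34-positive line. Each line was given 10 µM NEL, taken here to be the purine nucleoside analogue nelarabine from knowledge of the published study, or the vehicle DMSO. The 4 groups were U937 with NEL, U937 with DMSO, KG1A with NEL and KG1A with DMSO, with 4 libraries each and 16 in all. Every group grew in RPMI medium with dialyzed serum. The study's title and design concern nucleotide balance and the differentiation block of these leukaemias. No treatment time is labelled. Nothing in the labels marks the 4 libraries of a group as separate cultures, so each p-value reflects a library spread that could be technical. Each group is 1 established line, and in bulk RNA fewer cells of a type and less RNA per cell cannot be told apart.

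MHC class I molecules show peptides from inside the cell to CD8 T cells and are ligands of natural killer cell receptors. The proteasome cuts proteins into peptides, the TAP1 and TAP2 transporter carries them into the endoplasmic reticulum, and tapasin, the product of TAPBP, holds empty class I molecules at the transporter while a peptide is loaded. A heavy chain such as HLA-B pairs there with beta-2 microglobulin, the product of B2M, and the complex moves to the cell surface. NLRC5 is a nuclear regulator that acts at class I promoters through an enhanceosome of RFX, CREB family and NF-Y factors, and interferons raise most genes of the pathway in many cell types. Leukaemia cells that lose class I transcripts are known to be less visible to T cells.

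Total counts of the U937 libraries ran from 11157449 to 11403031 with NEL and from 11524192 to 11777684 with DMSO. Those of KG1A ran from 10641567 to 11046699 with NEL and from 10900129 to 11049006 with DMSO. A count of 0 in a library therefore allows up to 0.255 to 0.282 CPM, a count scaled to a common library total, for counting error only. Libraries 1 and 3 stood apart from 2 and 4 in every group on the second principal component, which held 6.05% of the variance in U937 and 13.3% in KG1A. The labels name no batch. Line markers matched the labels in part. CD34 had 0 to 14 counts in U937 and 9135 to 11444 in KG1A, and CD4 had 2030 to 3312 in U937 and 0 to 1 in KG1A. The myeloid enzyme gene MPO was at 0 to 7 counts in every library. KG1A also held transcripts of the T cell genes CD3D (1104 to 1415 counts) and CD3E (261 to 459 counts), with CD2 at 0 to 1. Summed counts of 6 myeloid markers were 12007 to 12315 in U937 with NEL and 9888 to 10776 in U937 with DMSO. In KG1A they were 7945 to 8416 with NEL and 9117 to 9537 with DMSO. Most of that KG1A sum was PTPRC, at 7497 to 8032 counts with NEL and 8863 to 9283 with DMSO. CEBPA in KG1A went the other way, with 328 to 369 counts with NEL and 218 to 230 with DMSO. CD33, LYZ and SPI1 were low in KG1A, at no more than 21, 3 and 73 counts. The markers of the sum did not move alike in U937 either. PTPRC had 4957 to 5411 counts with NEL and 2137 to 2249 with DMSO, and CEBPA had 2790 to 3080 with NEL and 4416 to 5144 with DMSO. Other myeloid genes in U937 moved far, with ITGAM at 575 to 651 counts with NEL and 88 to 109 with DMSO, CSF1R at 217 to 231 with NEL and 27 to 36 with DMSO, and PRTN3 at 4377 to 4698 with NEL and 10795 to 11681 with DMSO. The mitochondrial share of counts was 5.89% to 7.29% in U937 with NEL and 7.09% to 9.33% in U937 with DMSO. In KG1A it was 7.34% to 9.94% with NEL and 8.24% to 10.4% with DMSO. The part of these values in the results was not tested. The 3 erythroid markers were at 0 in all libraries.

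In U937 with NEL, 7 of the 9 genes rose (HLA-B, HLA-C, HLA-E, HLA-F, B2M, TAP1 and TAPBP), TAP2 fell and NLRC5 was not called (edgeR's quasi-likelihood test, Benjamini-Hochberg adjusted p under 0.05 over 14390 genes). Of all genes tested in U937, 34.6% were called higher and 34.7% lower, 69.3% in all. The median log2 fold change of the 9 was 0.35 beside -0.00 for all genes, and the libraries of NEL and DMSO did not overlap for 8 of the 9 (62.4% of all genes). In KG1A, 0 of 8 genes tested were called higher and 5 lower (HLA-C, HLA-E, B2M, TAP1 and TAPBP), with a median of -0.15. Here 23.6% of all 14250 genes were called higher and 23.6% lower, 47.2% in all. Of the calls over all genes in KG1A, 50.04% were higher, and 64.5% were higher with limma-trend on the RPKM values. With libraries 1 and 3, and 2 and 4, summed, a setting chosen after seeing the data, 2 of the KG1A genes were called lower, HLA-C and TAPBP. The unadjusted count at p under 0.05 was 0 higher and 5 lower in KG1A, and DESeq2 called 0 higher and 4 lower. The libraries did not overlap for 3 of the KG1A genes, HLA-E, B2M and TAPBP (42.2% of all genes). Of the 9 genes, 6 had an interaction call in the direction of a higher NEL effect in U937 than in KG1A and 0 in the other direction, with 21.1% and 26.3% of 16117 genes called in these directions and 47.4% in either. The unadjusted count was again 6 and 0, and DESeq2 gave 6 and 0. The balance over all genes depended on the scaling. Of the interaction calls over all genes 44.5% were in the higher direction with edgeR, 54.2% with DESeq2 size factors and 54.6% with the DESeq2 test, and the all-gene median was -0.03 with edgeR and 0.05 with either DESeq2 setting.

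**Figure D1:**
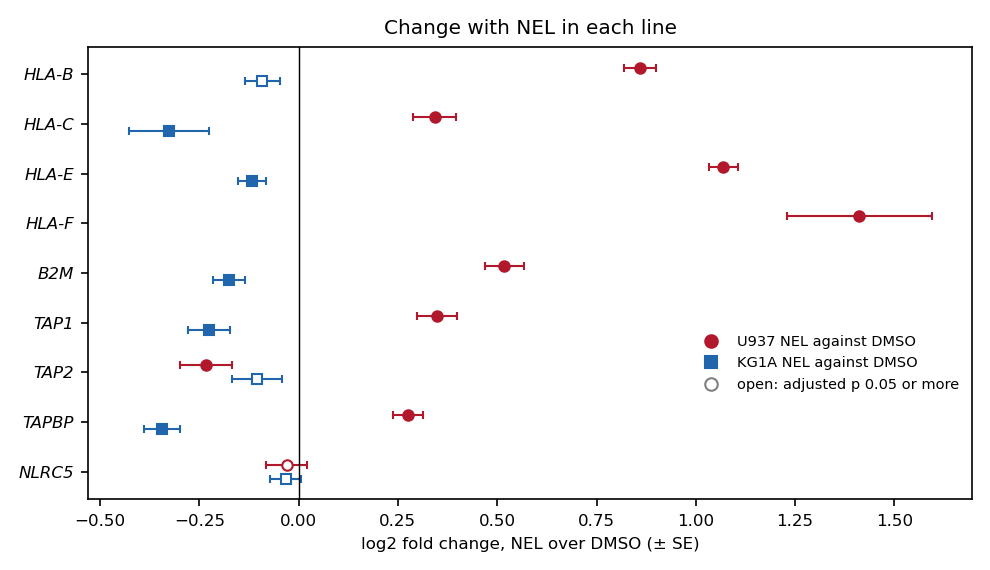
Change of each gene with NEL as log2 fold change over DMSO (x axis, bars are the standard error) in U937 (red circles) and KG1A (blue squares), where open symbols had an adjusted p of 0.05 or more. In U937 7 genes lie right of 0 and TAP2 lies left at -0.23, while all 8 genes tested in KG1A lie left of 0, between -0.34 and -0.03.

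Windows upstream of the start sites are shown because HLA-B, HLA-C, HLA-F, B2M, TAP1 and TAPBP moved together in U937. They come from the RefSeq promoter table on GRCh38.p14, in which 7 of the 9 genes were matched, without HLA-E and NLRC5. Each window printed is the 200 bases before the start site, 5′ to 3′ on the gene's strand, with capitals for matches to 4 motifs on either strand. The motifs are the interferon response core (GAAA, any 2 bases, GAAA), the Y box CCAAT bound by NF-Y, the X2 core TGACG bound by CREB family factors, and the NF-kB consensus.
HLA-B (chr6:31357180-31357379, minus strand): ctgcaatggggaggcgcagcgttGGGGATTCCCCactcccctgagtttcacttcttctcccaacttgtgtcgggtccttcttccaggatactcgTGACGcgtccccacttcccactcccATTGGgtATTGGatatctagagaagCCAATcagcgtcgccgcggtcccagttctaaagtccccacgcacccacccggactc
HLA-C (chr6:31272093-31272292, minus strand): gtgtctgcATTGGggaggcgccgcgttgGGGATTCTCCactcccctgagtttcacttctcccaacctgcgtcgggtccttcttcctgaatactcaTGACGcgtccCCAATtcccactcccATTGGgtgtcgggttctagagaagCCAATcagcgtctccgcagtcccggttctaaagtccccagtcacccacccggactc
HLA-F (chr6:29723234-29723433, plus strand): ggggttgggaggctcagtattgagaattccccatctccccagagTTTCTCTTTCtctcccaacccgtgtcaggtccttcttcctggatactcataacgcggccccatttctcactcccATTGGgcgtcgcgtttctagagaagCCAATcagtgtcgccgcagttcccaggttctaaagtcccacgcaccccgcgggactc
B2M (chr15:44711317-44711516, plus strand): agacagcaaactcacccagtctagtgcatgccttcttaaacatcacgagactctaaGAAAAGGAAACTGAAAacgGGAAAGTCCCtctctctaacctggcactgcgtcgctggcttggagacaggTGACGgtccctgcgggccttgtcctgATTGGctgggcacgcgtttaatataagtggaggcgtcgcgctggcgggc
TAP1 (chr6:32853705-32853904, minus strand): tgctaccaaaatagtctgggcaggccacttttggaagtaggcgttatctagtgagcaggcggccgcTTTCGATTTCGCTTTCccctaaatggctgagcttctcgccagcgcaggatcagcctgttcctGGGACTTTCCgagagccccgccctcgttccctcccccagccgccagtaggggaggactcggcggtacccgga
TAP2 (chr6:32838740-32838939, minus strand): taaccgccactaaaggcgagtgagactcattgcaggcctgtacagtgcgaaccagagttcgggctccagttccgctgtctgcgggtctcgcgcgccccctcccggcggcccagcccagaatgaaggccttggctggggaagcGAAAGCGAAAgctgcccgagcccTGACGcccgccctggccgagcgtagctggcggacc
TAPBP (chr6:33314079-33314278, minus strand): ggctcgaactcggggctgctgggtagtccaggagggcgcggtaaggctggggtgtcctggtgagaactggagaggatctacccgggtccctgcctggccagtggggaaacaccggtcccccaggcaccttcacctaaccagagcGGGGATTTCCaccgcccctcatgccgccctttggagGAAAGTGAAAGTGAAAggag

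In all 35116 RefSeq windows of 300 bases, the interferon response core was held by 3.57%, the Y box by 34.6%, the X2 core by 24.6% and the NF-kB consensus by 11.3%. The interferon response core matched in the windows of HLA-F, B2M, TAP1, TAP2 and TAPBP. In B2M, TAP1 and TAPBP it matched at overlapping positions, starting in B2M at -144 and -138 from the start site. HLA-B and HLA-C held no match to these letters, and each had a Y box at -56 and an X2 core, at -106 in HLA-B and -105 in HLA-C. HLA-F had a Y box at -57 and no TGACG. TAP2, which fell in U937, held an interferon response core at -58 and an X2 core at -35. These motifs also matched in windows of genes that rose, and their part in the changes was not tested. For TAP1 the window of its upstream start site is printed, and that of its other start site held no match. A match is a string of letters and not a measured binding site.

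Among the heavy chains, HLA-B encodes a classical class I molecule (GRCh37 chr6:31321649-31324965, minus strand). It had 534, 499, 535 and 518 CPM in U937 with NEL, against 297, 276, 289 and 289 CPM in U937 with DMSO. Each NEL library was far above each DMSO library, and the fold was 1.81 (log2 0.86 ± 0.04 SE, adjusted p 3.97e-10 in edgeR). In KG1A it had 273, 261, 274 and 257 CPM with NEL and 295, 263, 294 and 277 CPM with DMSO. Here the groups overlapped, and the log2 fold change of -0.09 ± 0.04 was not called (edgeR adjusted p 0.0966). It was called lower with the replicate number as a block (-0.09, adjusted p 0.000464) and without KG1A DMSO library 2 (-0.12, adjusted p 0.0295). On sums of libraries 1 and 3, and 2 and 4, it was not called (adjusted p 0.314). U937 with NEL was thus the high group, and the other 3 lay together between 257 and 297 CPM. The NEL effect was higher in U937 than in KG1A by 0.94 ± 0.06 log2 units (edgeR adjusted p 2.50e-11).

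HLA-C, the other classical chain measured here (chr6:31236526-31239907, minus strand), had 472, 442, 399 and 458 CPM in U937 with NEL, against 364, 337, 363 and 337 CPM in U937 with DMSO. The groups did not overlap, with a log2 fold change of 0.34 ± 0.05 (edgeR adjusted p 5.38e-05). In KG1A the values were 185, 183, 229 and 174 CPM with NEL and 218, 207, 299 and 238 CPM with DMSO. Library 3 was the highest of its group in both treatments, and the groups overlapped. The KG1A log2 fold change was -0.33 ± 0.10 (edgeR adjusted p 0.0162). Without KG1A DMSO library 3 it was -0.21 with an adjusted p of 0.0540, and DESeq2 gave an adjusted p of 0.0739. The effect in U937 exceeded that in KG1A by 0.66 ± 0.13 (edgeR adjusted p 1.96e-04). HLA-B and HLA-C are related, highly polymorphic genes with stretches of similar sequence, so reads could be assigned between them differently in each line, and levels of these genes between lines are uncertain.

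The non-classical chains are ligands of natural killer receptors. HLA-E, whose product displays leader peptides of other class I chains to the receptor pair CD94 and NKG2A (chr6:30457244-30461982, plus strand), had 278, 272, 269 and 267 CPM in U937 with NEL, against 129.7, 131, 128 and 129.9 CPM in U937 with DMSO. These groups lay far apart, with a fold of 2.10 (log2 1.07 ± 0.04, edgeR adjusted p 2.42e-11). KG1A had 363, 347, 375 and 356 CPM with NEL and 384, 388, 391 and 393 CPM with DMSO. The KG1A groups did not overlap, yet the log2 fold change was -0.12 ± 0.04 (edgeR adjusted p 0.0135), and the odd-numbered libraries alone gave -0.08 with an adjusted p of 0.0780. By limma-trend on log2(RPKM + 0.5) it was -0.05 with an adjusted p of 0.243. The change differed between the lines by 1.18 ± 0.05 log2 units (edgeR adjusted p 2.59e-14).

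HLA-F, a chain found mostly inside resting cells (chr6:29690552-29706305, plus strand), was near the floor of detection in KG1A, at 3, 6, 11 and 4 counts with NEL and 2, 4, 4 and 5 counts with DMSO. It did not pass the filter on low counts there and was not tested. In U937 it had 55, 50, 59 and 65 counts with NEL and 19, 21, 28 and 15 counts with DMSO, with no overlap. The fold in U937 was 2.66 (log2 1.41 ± 0.18, edgeR adjusted p 9.69e-06). It was 0.85 on the log2 scale with limma-trend on log2(RPKM + 0.5), a scale that shrinks changes of low genes. The U937 effect minus the KG1A effect was 0.79 ± 0.54 and was not called (edgeR adjusted p 0.250), and limma-trend on that scale called it (0.74, adjusted p 0.000126). In KG1A the mean was 0.12 RPKM with NEL and 0.07 RPKM with DMSO. The 0.5 added to each value hides a KG1A change at such levels, so this call cannot decide on a difference between lines. HLA-F-AS1, on the opposite strand over 11928 bases of the gene, had 110 to 113 counts in U937 with NEL and 40 to 52 with DMSO. Whether counting used strand is not given in the sources used here, so reads of HLA-F and HLA-F-AS1 may not be separated.

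B2M, the shared light chain (chr15:45003675-45011075, plus strand), had 1739, 1834, 1714 and 1830 CPM in U937 with NEL, against 1141, 1248, 1251 and 1342 CPM in U937 with DMSO. The groups did not overlap, with a log2 fold change of 0.52 ± 0.05 (edgeR adjusted p 4.96e-07). In KG1A the values were 1661, 1764, 1697 and 1796 CPM with NEL and 1872, 1980, 1906 and 2016 CPM with DMSO. They did not overlap either, with a log2 fold change of -0.18 ± 0.04 (edgeR adjusted p 0.00266). By limma-trend on log2(RPKM + 0.5) this KG1A change was -0.11 with an adjusted p of 0.119. The U937 effect minus the KG1A effect was 0.68 ± 0.06 (edgeR adjusted p 1.36e-08).

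The peptide transporter genes split. TAP1 (chr6:32812986-32821755, minus strand) had 65.7, 60.4, 66.5 and 63.3 CPM in U937 with NEL, against 50.9, 51.5, 51.7 and 47.2 CPM in U937 with DMSO, without overlap (log2 0.35 ± 0.05, edgeR adjusted p 3.17e-05). In KG1A it had 146, 127, 139 and 127 CPM with NEL and 161, 146, 164 and 156 CPM with DMSO. The groups touched at 146 CPM, and the log2 fold change was -0.23 ± 0.05 (edgeR adjusted p 0.00251). TAP2 (chr6:32789610-32806557, minus strand) had 50.1, 47.3, 50.4 and 45.7 CPM in U937 with NEL, against 60.8, 53.2, 62.2 and 52.0 CPM in U937 with DMSO. The TAP2 groups in U937 did not overlap either. Its log2 fold change in U937 was -0.23 ± 0.07 (edgeR adjusted p 0.00565) and -0.13 by limma-trend on log2(RPKM + 0.5), with an adjusted p of 0.102. TAP2 in KG1A was at 88.4, 79.1, 97.0 and 81.5 CPM with NEL and 99.1, 88.5, 95.3 and 87.5 CPM with DMSO, overlapping and not called (-0.11 ± 0.06, edgeR adjusted p 0.184). It was called in KG1A with the replicate block (-0.11, adjusted p 0.00712) and without KG1A NEL library 3 (-0.16, adjusted p 0.0346), and not on sums of libraries 1 and 3, and 2 and 4 (adjusted p 0.385). For TAP1 the U937 effect exceeded the KG1A effect by 0.56 ± 0.08 (edgeR adjusted p 1.97e-06). The difference of the TAP2 effect between lines was not called (-0.14 ± 0.10, adjusted p 0.259), and it was called with the block (-0.14, adjusted p 0.0374) and not on those sums (-0.15, adjusted p 0.445). TAP1 lies wholly within the annotated span of PSMB9 on the opposite strand, with the counting strand not given. It also overlaps PSMB8-AS1 on the opposite strand over 1287 bases. Another annotated gene overlaps 16948 bases of TAP2 on the same strand and had 0 counts in every library. Whether reads shared with that gene were left out of the TAP2 count is not given, so TAP2 levels and their ratios are uncertain.

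TAPBP, the loading bridge (chr6:33267471-33282164, minus strand), had 190.5, 188, 191 and 184 CPM in U937 with NEL, against 152, 157, 162 and 153 CPM in U937 with DMSO. In KG1A it had 132, 124, 117 and 119.9 CPM with NEL and 157, 162, 149.8 and 154 CPM with DMSO. Neither line showed overlap. The log2 fold change was 0.28 ± 0.04 in U937 (edgeR adjusted p 2.01e-05) and -0.34 ± 0.05 in KG1A (adjusted p 2.30e-05), a difference of 0.61 ± 0.06 (edgeR adjusted p 1.55e-08).

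NLRC5 (chr16:57023397-57117443, plus strand) had 47.7, 46.7, 47.7 and 48.9 CPM in U937 with NEL and 52.2, 48.6, 46.4 and 48.4 CPM in U937 with DMSO. In KG1A it had 249, 252, 253 and 241 CPM with NEL and 264, 261, 248 and 239.6 CPM with DMSO. The treatments overlapped in both lines, and the log2 fold changes were -0.03 ± 0.05 in U937 (edgeR adjusted p 0.611) and -0.03 ± 0.04 in KG1A (adjusted p 0.525). Neither was called.

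**Figure D2:**
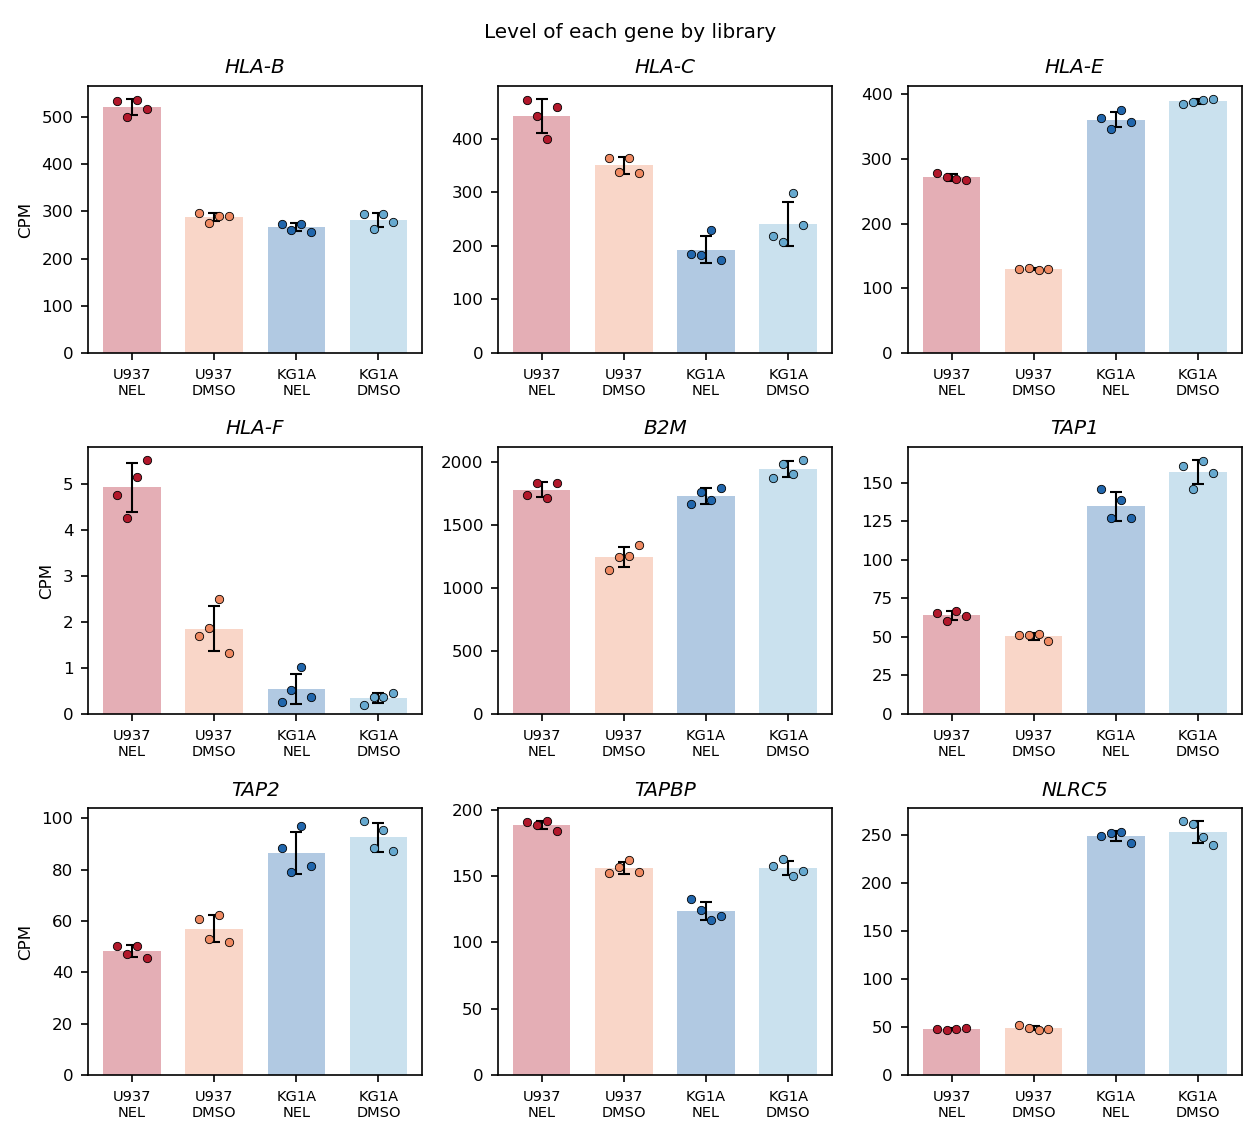
CPM of each gene (y axis, from 0) in U937 with NEL, U937 with DMSO, KG1A with NEL and KG1A with DMSO; points are the 4 libraries, bars the mean and whiskers the SD. HLA-B, HLA-E and B2M stand higher with NEL than with DMSO in U937, and NLRC5 lies between 46.4 and 52.2 CPM in U937 and between 239.6 and 264 CPM in KG1A under both treatments.

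Without NEL the lines already differed, as they did for most genes tested. In the DMSO libraries 2 of the 9 genes were called higher in U937 than in KG1A (HLA-C and HLA-F) and 5 lower (HLA-E, B2M, TAP1, TAP2 and NLRC5), where 43.0% and 43.4% of 15181 genes were called in these directions, 86.4% in all. NLRC5 had the largest of these log2 changes, 5.49-fold lower in U937 (log2 -2.46 ± 0.05, edgeR adjusted p 4.09e-17). TAP1 was lower in U937 by a log2 change of -1.72 ± 0.05 and HLA-E by -1.67 ± 0.04 (edgeR adjusted p 5.94e-15 and 1.44e-16). HLA-F was called higher in U937, with a log2 fold change of 2.29 ± 0.33 (edgeR adjusted p 6.58e-06) and 0.61 by limma-trend on log2(RPKM + 0.5). It had 2 to 5 counts in KG1A with DMSO and passed the filter on low counts only through its U937 libraries. Its call between the lines was thus set in part by the filter. TAPBP was not called (-0.08 ± 0.04, edgeR adjusted p 0.0819), and was called lower with the replicate block (-0.08, adjusted p 0.0141) and without KG1A DMSO library 3 (-0.11, adjusted p 0.0348). On sums of libraries 1 and 3, and 2 and 4, its adjusted p was 0.257. Libraries of the lines did not overlap for 7 of the 9 genes (81.6% of all genes).

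With NEL, 4 genes were called higher in U937 (HLA-B, HLA-C, HLA-F and TAPBP) and 4 lower (HLA-E, TAP1, TAP2 and NLRC5), beside 42.3% and 42.9% of 15602 genes and 85.1% in either direction. HLA-F, at 3 to 11 counts in KG1A with NEL, again passed the filter only through its U937 libraries. B2M was not called in these libraries, at 1779 ± 61.8 CPM in U937 and 1729 ± 61.4 CPM in KG1A (SD, n = 4 each; log2 0.04 ± 0.04, edgeR adjusted p 0.431). In DMSO libraries it had been lower in U937, at 1245 ± 81.9 CPM against 1943 ± 66.1 CPM in KG1A (log2 -0.73 ± 0.05, edgeR adjusted p 4.77e-10). HLA-E stayed lower in U937, with a log2 fold change of -0.41 ± 0.04 (edgeR adjusted p 6.93e-08). The B2M and HLA-E differences between the lines were thus smaller with NEL than with DMSO, as the interaction terms above show. Libraries did not overlap for 8 of the 9 genes (80.6% of all genes).

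**Figure D3:**
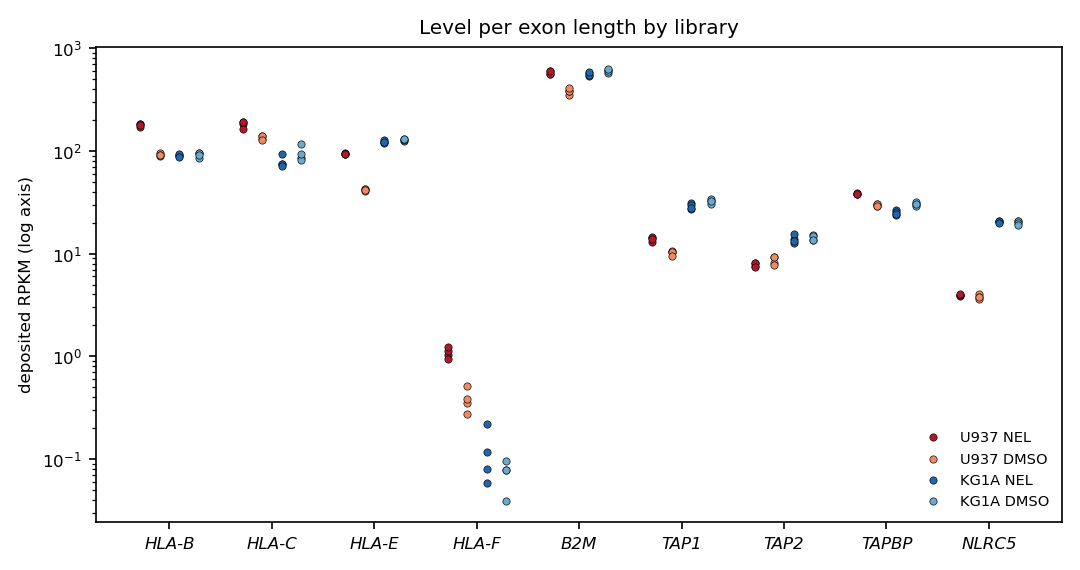
Deposited RPKM of each gene (y axis, log scale) in every library of the 4 groups, marked by colour. B2M is the highest of the 9 genes in every group and HLA-F the lowest, and within U937 and KG1A the classical chains and HLA-E lie above the transporter genes.

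Per exon length, B2M was the highest of the 9 in every group. Its mean RPKM (the count scaled by exon length and library total) was 581 ± 22.5 in U937 with NEL, 381 ± 23.3 in U937 with DMSO, 561 ± 24.5 in KG1A with NEL and 605 ± 25.1 in KG1A with DMSO (SD, n = 4 each). It ranked 36, 56, 29 and 27 among all genes in these groups. The heavy chains HLA-B, HLA-C and HLA-E followed, between 42.0 and 182 RPKM. The TAP genes lay lower, at 13.9 RPKM for TAP1 and 7.80 RPKM for TAP2 in U937 with NEL. NLRC5 was at 3.97 RPKM in U937 with NEL and 20.5 RPKM in KG1A with NEL.

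Ratios of RPKM values within a library show how partners of the pathway moved against each other. These 12 ratio tests were chosen after values had been seen, and the smallest exact two-sided permutation p for 4 against 4 libraries is 0.0286. The ratio of TAP1 to TAP2 was 1.78 ± 0.06 in U937 with NEL and 1.19 ± 0.09 in U937 with DMSO. HLA-B over HLA-C was 0.985 ± 0.09 with NEL and 0.685 ± 0.02 with DMSO in U937, and HLA-E over B2M was 0.162 ± 0.01 with NEL and 0.111 ± 0.01 with DMSO. In U937 the immunoproteasome subunits over the constitutive subunits they replace were also higher with NEL. PSMB9 over PSMB6 was 0.273 ± 0.01 with NEL and 0.102 ± 0.02 with DMSO, and PSMB8 over PSMB5 was 2.02 ± 0.14 with NEL and 1.52 ± 0.03 with DMSO. PSMB10 over PSMB7 was 0.1201 ± 0.01 with NEL and 0.0743 ± 0.01 with DMSO. PSMB8 and PSMB10 were not themselves called in U937, where PSMB5, PSMB6 and PSMB7 were called lower and PSMB9 higher. All 6 ratios in U937 reached this smallest p (exact permutation p 0.0286, adjusted p over the 12 tests 0.0490). In KG1A 1 of 6 did, PSMB8 over PSMB5, at 1.27 ± 0.07 with NEL and 1.72 ± 0.13 with DMSO (exact permutation p 0.0286, adjusted 0.0490), and the other KG1A ratios had exact p from 0.0857 to 0.286. The PSMB9 count may hold reads of TAP1, which overlaps it on the opposite strand.

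**Figure D4:**
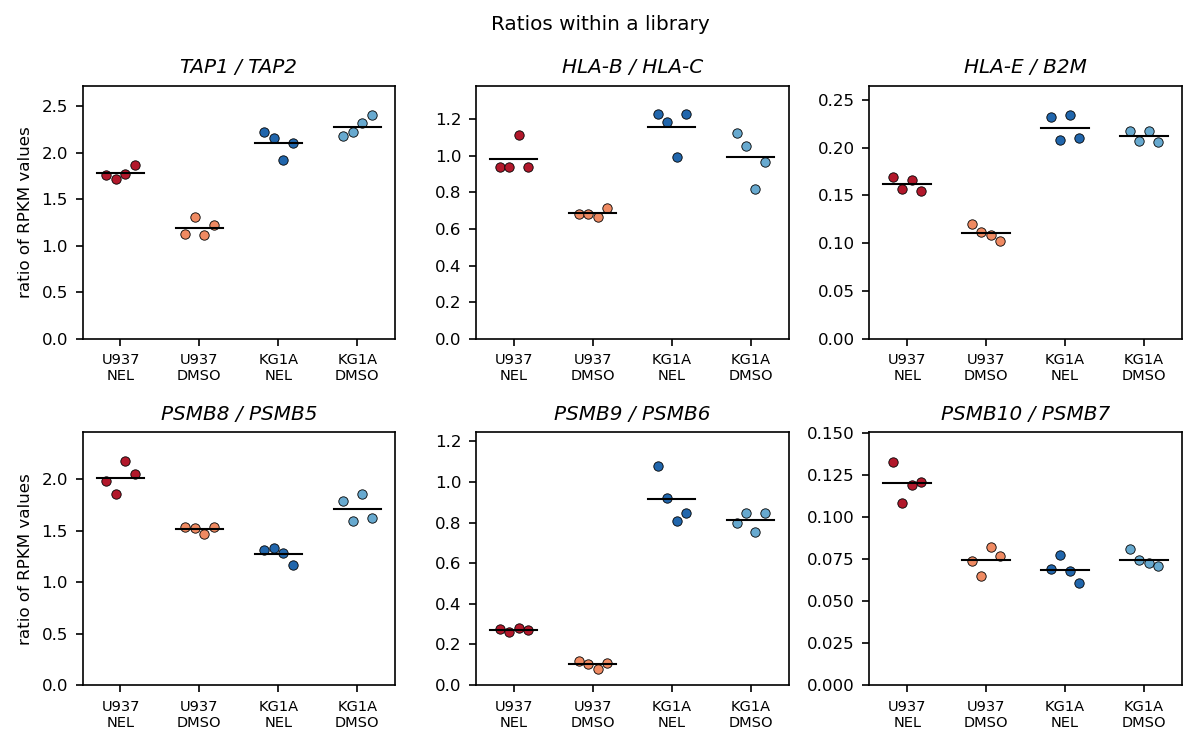
Ratio of the RPKM values of 2 genes within each library (y axis, from 0), with points for libraries and a line for the mean, in U937 with NEL, U937 with DMSO, KG1A with NEL and KG1A with DMSO. In U937 all NEL libraries lie above all DMSO libraries in each of the 6 panels, and in KG1A PSMB8 over PSMB5 lies lower with NEL.

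Further genes of the pathway were read as 9 lists of 71 genes in all, also chosen with earlier results of these data known. Their counts stand beside all genes tested, of which 34.6% were called higher and 34.7% lower in U937, and 23.6% higher and 23.6% lower in KG1A. Of the immunoproteasome and PA28 genes, whose products form or activate the proteasome that cuts peptides for class I, 1 of 5 rose in U937, PSMB9 (31.3 ± 1.74 CPM with NEL, 17.04 ± 2.54 CPM with DMSO, log2 0.88 ± 0.10, edgeR adjusted p 1.69e-06), and 0 fell. In KG1A 4 of the 5 fell, PSME1 (-0.29), PSMB8 (-0.26), PSMB9 (-0.23) and PSMB10 (-0.43), and PSME2 rose (0.21). The constitutive subunits PSMB5, PSMB6 and PSMB7 fell in U937, by log2 changes of -0.42, -0.55 and -0.52. In KG1A PSMB6 and PSMB7 fell (-0.39 and -0.31), and PSMB5 had 0.17 without a call (edgeR adjusted p 0.0599), called higher with the block (adjusted p 0.000842).

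Of the 7 genes for peptide trimming and loading, 2 rose and 1 fell in U937, where 69.3% of all genes were called, and 3 rose and 2 fell in KG1A, where 47.2% were. ERAP1, the aminopeptidase that trims peptides in the endoplasmic reticulum, had 98.2 ± 4.85 CPM in U937 with NEL and 55.8 ± 1.99 CPM with DMSO, and 52.5 ± 1.75 CPM in KG1A with NEL and 70.3 ± 2.77 CPM with DMSO. Its log2 fold change was 0.82 in U937 and -0.43 in KG1A, a difference of 1.24 ± 0.07 (edgeR adjusted p 2.42e-12). Its relative ERAP2 moved in the same directions (0.54 in U937, -0.53 in KG1A). The chaperone gene CALR went the other way, -0.51 in U937 and 0.44 in KG1A. UGGT1 (0.25) and PDIA3 (0.24) also rose in KG1A, and leaving out any of 4 KG1A libraries, DMSO 1, DMSO 3, NEL 2 and NEL 4, ended the PDIA3 call (edgeR adjusted p 0.0949 to 0.102).

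Other class I-like genes, among them ligands of the activating receptor NKG2D, rose in 6 of 7 tested in U937 (34.6% of all genes) and 3 of 8 in KG1A (23.6%). In neither line did edgeR's test, adjusted or not, or DESeq2 call any lower (34.7% and 23.6% of all genes). CD1D, the tested gene without a call in U937, lay lower with NEL, at 1.99 to 2.64 CPM against 2.77 to 3.19 CPM with DMSO. Without KG1A NEL library 2, HFE was called lower in KG1A (edgeR adjusted p 0.0402). MR1, which shows vitamin metabolites to T cells, had log2 fold changes of 1.24 in U937 and 0.44 in KG1A. MICB (0.70 and 0.45) and FCGRT (0.24 and 1.05) rose in both lines, the second being the receptor that spares antibodies and albumin from breakdown. MICA, ULBP1 and ULBP2 rose in U937 (0.91, 0.37 and 1.24). HLA-G was at 0 to 2 counts in every library.

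Among 12 factors of the class I promoter, 2 rose and 6 fell in U937, beside 34.6% and 34.7% of all genes, and 2 rose and 5 fell in KG1A, beside 23.6% each way. NFYB rose in U937 (0.16) and KG1A (0.19), and RFXANK rose in KG1A (0.18), calls that ended without single libraries (highest edgeR adjusted p 0.058, 0.0955 and 0.123). In KG1A ATF1 (-0.33), CREB1 (-0.28) and RFX5 (-0.20) fell, RFX5 with an adjusted p of up to 0.0796 without single libraries. The NF-Y subunit genes NFYA and NFYC fell in both lines, by -0.78 and -0.63 in U937 and by -0.24 and -0.34 in KG1A. The NF-kB subunit genes NFKB1 and RELA, with ATF1 and RFXANK, were the others that fell in U937. With single libraries left out, log2 changes were -0.40 to -0.32 for NFKB1 and -0.19 to -0.14 for RELA. They were -0.32 to -0.26 for ATF1 and -0.29 to -0.23 for RFXANK. RELA was not called in the even-numbered libraries alone (edgeR adjusted p 0.150). IRF2, an interferon regulatory factor, rose in U937 (51.1 ± 1.69 CPM with NEL, 24.7 ± 1.57 CPM with DMSO, log2 1.05, edgeR adjusted p 2.22e-09). It was not called in KG1A (-0.05, adjusted p 0.615). IRF1, of the same list, was not called in the main fit of either line. The 3 PRC2 genes, whose complex silences class I genes in some cancers, were called higher in KG1A (EZH2 0.35, EED 0.33 and SUZ12 0.16), and EZH2 (0.26) and SUZ12 (0.13) in U937.

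All 12 genes of interferon signalling that were tested, SOCS1 and SOCS3 among them, rose in U937, where 34.6% of all genes were called higher. Their median log2 fold change was 0.56. IRF9 and IFNAR1 were not called in the even-numbered libraries alone (edgeR adjusted p 0.0773 and 0.0860), nor SOCS3 in the odd-numbered ones (adjusted p 0.0580). IFNAR1 was not called on sums of libraries 1 and 3, and 2 and 4 (adjusted p 0.0776). In KG1A 5 rose and 1 fell, beside 23.6% of all genes each way. STAT2, a signal transducer of type I interferon receptors, was at 100.5 ± 2.09 CPM in U937 with NEL and 36.2 ± 2.83 CPM with DMSO (log2 1.48 ± 0.06, edgeR adjusted p 5.19e-11), and the interferon gamma receptor gene IFNGR1 rose by 0.57. In KG1A SOCS1 (1.00), SOCS3 (0.61), IFNGR1 (0.28), TYK2 (0.26) and STAT2 (0.16) rose and JAK1 fell (-0.20). STAT2 in KG1A lost its call without KG1A DMSO library 4 (edgeR adjusted p 0.0679) or KG1A NEL library 2 (adjusted p 0.0716). The difference between lines was called for 8 of the 12, all in the direction of a higher effect in U937, beside 21.1% of all genes called in that direction and 26.3% in the other.

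**Figure D5:**
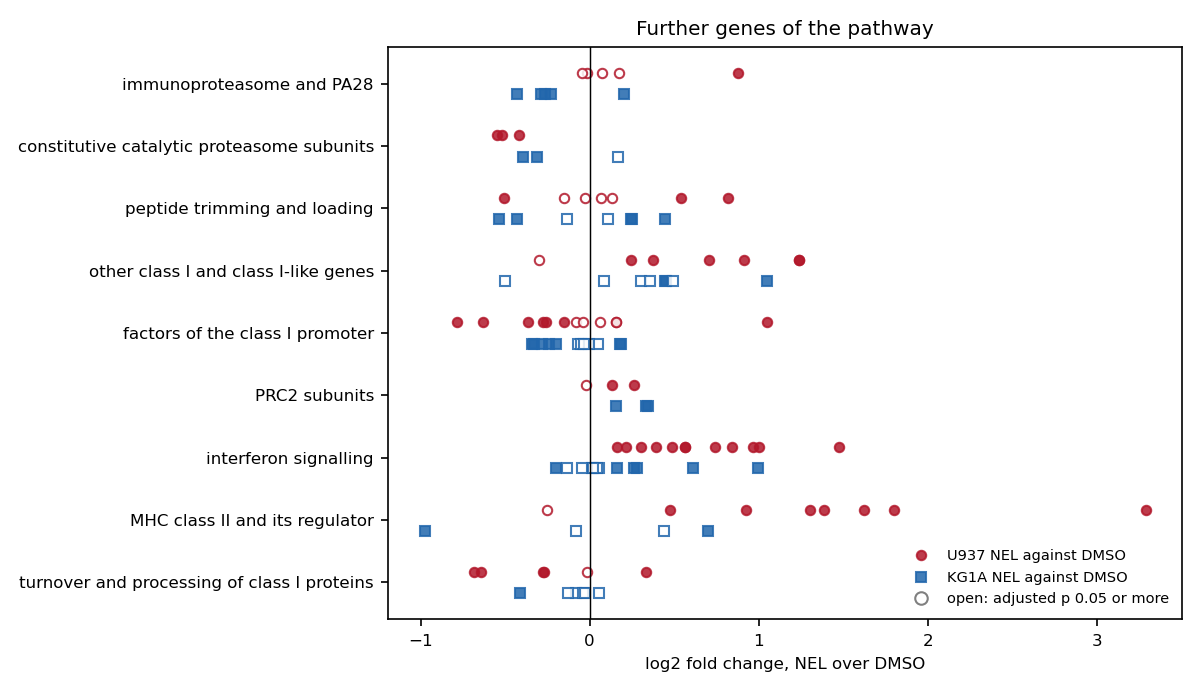
Log2 fold change with NEL over DMSO (x axis) of the tested genes of 9 lists (rows), in U937 (red circles) and KG1A (blue squares), with open symbols for an adjusted p of 0.05 or more. All 12 interferon signalling genes lie right of 0 in U937, while in KG1A 5 were called higher and 1 lower.

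The genes whose pattern over the 4 group means was most like each member were found among 10600 genes averaging 5 CPM or more, by the root mean square difference of centred log2 values. HLA-E was nearest to ZNF654 (0.02) and the ferritin heavy chain gene FTH1 (0.03), and NLRC5 to WWP1 (0.02) and PCNX4 (0.05). TAP2 was nearest to IVD (0.01) and MIER1 (0.02), TAPBP to ACTR1B (0.01) and SLC10A7 (0.03), and B2M to PAIP2 (0.03) and HINT3 (0.03). HLA-B was nearest to PBXIP1 (0.04) and XPNPEP1 (0.05), and HLA-C to ZXDB (0.04) and ANKRD10 (0.04). TAP1 was nearest to BACE1 (0.03) and STAU2 (0.04), and HLA-F to CLEC2A (0.07) and APOLD1 (0.07). With 4 group means, such likeness is a description only.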

How the data were processed

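Polyadenylated RNA of 16 libraries was sequenced with stranded kits, per the labels' protocols. Per the submitters' processing notes, reads were demultiplexed by the authors with bcl2fastq 2.18.0.12, and HTSeq 0.11.2 and TopHat2 are named with the build hg19 (GRCh37). No strand option or annotation release is stated there. Raw gene counts and RPKM values were deposited. Dividing each count by gene length and library total gave the deposited RPKM within a relative 1.86e-07. A symbol was found for 32562 of the 34618 IDs, and IDs without one took 0.878% of counts. Counts were tested with edgeR 4.0.16 in R 4.3.3 (TMM factors, minimum count 10, minimum total 15), Benjamini-Hochberg adjusted over all genes of each fit and called under 0.05. CPM use TMM factors of all 16 libraries. The standard error is the log2 fold change divided by the square root of F. Fits within a line used its 8 libraries, the interaction all 16, and the line comparisons the 8 libraries of a treatment. The fit was tested on simulated data.

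The 9 genes and the lists were chosen with earlier results of these data known. The text names all 9 genes, per list and line up to 2 called genes of smallest p each way and those left beside a count of 5 or fewer, and the nearest genes by pattern. MICA, ULBP1, ULBP2, HFE, CD1D, IRF1, IRF9, IFNAR1, CIITA, HLA-DMB, NFKB1 and RELA were chosen after their values were seen. So were ATF1 and RFXANK in U937 and the non-called values given for contrast. Alternatives were DESeq2 1.42.0 (test or size factors), no or a stricter filter (1 CPM in 4 libraries), limma-trend (limma 3.58.1) on log2(RPKM + 0.5) or log2(RPKM + 0.1), odd-numbered or even-numbered libraries, libraries 1 and 2 with 3 and 4 summed, a replicate block and each library left out. Sums of 1 and 3 with 2 and 4 were added after seeing the data.

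Libraries with the same number in NEL and DMSO of a line deviated together (r 0.289 to 0.369 in 8 pairs). Libraries 1 with 3 and 2 with 4 did so too (r 0.285 to 0.401), and odd with even ones gave r of -0.396 to -0.280. The largest r was with the same number for 8 of 16 libraries. The values thus show a split of odd and even numbers and no closer pairing by number. The main fits and the permutation tests did not take this split into account. Figures used Python 3.11.15 and matplotlib 3.10.9.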

Additional observations from a re-analysis of the deposited data

Results flagged for a closer look

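The change with NEL differed between U937 and KG1A for 6 of the 9 genes by the interaction term (edgeR adjusted p under 0.05). The NEL effect in U937 minus that in KG1A was 0.94 log2 units for HLA-B, 0.66 for HLA-C, 1.18 for HLA-E, 0.68 for B2M, 0.56 for TAP1 and 0.61 for TAPBP. Each of these genes was called higher in U937. In KG1A 5 of them were called lower, and HLA-B was not called (-0.09 ± 0.04, edgeR adjusted p 0.0966). Over the 27 alternatives of the HLA-E difference it ranged from 1.16 to 1.26. For HLA-C it ranged from 0.53 to 0.75, with KG1A library 3 the highest of its group in both treatments. None of the 36 groups of 4 libraries held a library past Dixon's critical gap.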

How the results depend on the processing

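Of the counts of calls recomputed under alternatives, 402 stayed within 1.5 times and 10 moved. Libraries 1 and 3, and 2 and 4, summed (added after seeing the data) gave 2 members lower in KG1A (HLA-C and TAPBP; adjusted p 0.0522 for TAP1, 0.0883 for B2M and 0.147 for HLA-E), 0 lower in U937 (TAP2 adjusted p 0.0531) and 2062 genes lower in KG1A. With limma-trend on either RPKM scale, 2 members were lower in KG1A (TAP1 and TAPBP) and 0 in U937, and 64.5% of the calls in KG1A were higher against 50.04% with edgeR. The interaction gave 1 member lower, TAP2, in odd-numbered libraries, in sums of 1 and 2 with 3 and 4, and in the replicate block. The sign of NLRC5 turned, never with a call: in limma-trend it was 0.034 on either RPKM scale in KG1A, 0.054 and 0.060 in U937, and 0.021 and 0.025 for the difference between lines, which was 0.079 with DESeq2 size factors or its test and 0.0062 in even-numbered libraries, and -0.035 to 0.023 when single libraries were left out. HLA-B between DMSO lines was 0.0055 by limma-trend. The replicate block changed no call of the 9 genes beyond HLA-B and TAP2 in KG1A, TAP2 in the interaction and TAPBP between DMSO lines, and none of these 4 was called on the sums of libraries 1 and 3, and 2 and 4. Of list genes, a call was lost 53 times under an alternative and kept its side 1484 times. Each of the 7 genes higher in U937 was called in 19 of 19 alternatives, odd-numbered and even-numbered libraries included, and each of the 6 interaction calls in 27 of 27. The causes were not tested. Depth limits HLA-F in KG1A, with 2 to 11 counts.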

Other observations

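The class II genes, which show peptides to CD4 T cells, were called higher in U937 for 7 of 8 tested and lower for 0, beside 34.6% and 34.7% of all genes. HLA-DMB, among the 7, did not pass the filter on low counts in the DMSO libraries. It entered the U937 fit only through its NEL libraries, so its call was set in part by the filter. HLA-DOA, HLA-DPA1, HLA-DPB1, HLA-DQA1 and HLA-DQB1 did not pass the filter in U937. DESeq2 and the unadjusted count also gave 0 lower, and without U937 NEL library 3 HLA-DOB was called lower (edgeR adjusted p 0.0387). HLA-DRA had 157 ± 4.54 CPM in U937 with NEL and 50.9 ± 2.52 CPM with DMSO (log2 1.63 ± 0.05, edgeR adjusted p 5.01e-12). HLA-DRB1 rose by 1.39 on the log2 scale, and CIITA, the class II counterpart of NLRC5, by 0.93. In KG1A 9 of the 13 class II genes did not pass the filter on low counts. CTSS rose in KG1A (0.70) and HLA-DOB fell (-0.98), and HLA-DOB lost its call without KG1A DMSO library 4 (adjusted p 0.0509).

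Of the 6 genes for turnover and processing of class I proteins, SUSD6 rose in U937 (0.33), and WWP2 (-0.68), HM13 (-0.64), TMEM127 (-0.27) and SPPL3 (-0.27) fell. In KG1A, where 23.6% of all genes were called lower, WWP2 fell (-0.41) and no other gene of the list was called.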
